A study of Mus musculus with 24 samples.

Results

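The genes that cut, carry and display peptides to T cells were followed in the hippocampus of PS19 mice, which make human tau with the P301S change and develop tau pathology. The 10 genes were chosen by symbol, as 7 genes of the class I pathway (H2-K1, H2-D1, B2m, Tap1, Tapbp, Psmb8 and Psmb9) and 3 genes of the class II pathway (H2-Aa, H2-Ab1 and Cd74). They are 10 of the 24058 symbols with read counts, and all 10 were among the 16118 genes with enough counts to be tested. All mice carried the tau transgene (P301S+). Their genotypes differed in TREM2, a receptor by which microglia sense lipids. The groups with titles starting with LG72 were 5 R47H-TREM2 females, 5 R47H-TREM2 males (P301S+;hTREM2-R47H/+, with 1 human TREM2 allele that has the R47H change linked to Alzheimer's disease), 3 Trem2+/+ females and 2 Trem2+/+ males (P301S+;msTrem2+/+, mouse Trem2 alone). The groups with titles starting with LG73 were 6 WT-TREM2 females (P301S+;hTREM2-WT/+, with 1 human allele of the common form) and 3 Trem2+/+ females. The labels give no age, strain or promoter of the transgene and no meaning for the prefixes, and no group lacks the tau transgene, so every level below is that of tauopathy tissue. Nothing in the labels says that the libraries of a group came from separate animals, so the spread behind each p-value is that between libraries and may be technical.

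Class I molecules show peptides made inside a cell to CD8 T cells. The peptides are cut by the proteasome, pumped into the endoplasmic reticulum by the TAP transporter and loaded there onto a heavy chain that is paired with beta-2 microglobulin. Class II molecules are made of an alpha and a beta chain, travel with the invariant chain Cd74 and show peptides from taken-up material to CD4 T cells. In healthy brain parenchyma both pathways are low, and interferon-gamma is the best known inducer of both in microglia. RFX, CREB and NF-Y factors bind neighbouring sites at promoters of both classes, where the coactivators Nlrc5 (class I) and Ciita (class II) join them.

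The promoters of 4 of the 10 genes are printed because they hold the same pair of short motifs in the same order, in genes of both classes. The windows run from 250 bases before to 50 bases after the annotated start, from RefSeq (GRCm38.p6), and 8 of the 10 genes had an entry (all but H2-Ab1 and Cd74). H2-K1 has 2 overlapping entries and the first is shown. Each is read 5′ to 3′ along the gene. Capitals mark every match, on either strand, to ATTGG (the Y box, the reverse of the CCAAT box bound by NF-Y), TGACG (the core of a site for CREB and ATF factors), GGNNNTTCC (NF-kB-like), GAANNGAAA or GAAANNGAA (interferon regulatory factor-like).
H2-K1, chr17:34000298-34000597, minus strand: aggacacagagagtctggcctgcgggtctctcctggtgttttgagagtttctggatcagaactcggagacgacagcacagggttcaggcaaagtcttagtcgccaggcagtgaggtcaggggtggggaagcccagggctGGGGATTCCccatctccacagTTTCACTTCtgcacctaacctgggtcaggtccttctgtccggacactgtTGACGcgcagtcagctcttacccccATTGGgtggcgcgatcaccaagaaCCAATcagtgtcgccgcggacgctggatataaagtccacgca
H2-D1, chr17:35262844-35263143, plus strand: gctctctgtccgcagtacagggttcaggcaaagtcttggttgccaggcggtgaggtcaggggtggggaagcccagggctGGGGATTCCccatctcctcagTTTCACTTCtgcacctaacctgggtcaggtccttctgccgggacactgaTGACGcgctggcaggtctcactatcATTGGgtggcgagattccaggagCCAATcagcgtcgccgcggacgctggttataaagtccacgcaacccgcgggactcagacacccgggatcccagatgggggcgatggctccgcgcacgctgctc
B2m, chr2:122147437-122147736, plus strand: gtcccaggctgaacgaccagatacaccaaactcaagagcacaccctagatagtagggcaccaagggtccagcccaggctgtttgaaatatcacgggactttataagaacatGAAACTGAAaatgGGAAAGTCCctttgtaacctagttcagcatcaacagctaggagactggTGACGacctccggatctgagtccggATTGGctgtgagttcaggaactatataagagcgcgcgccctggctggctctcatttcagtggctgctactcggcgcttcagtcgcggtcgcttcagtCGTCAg
H2-Aa, chr17:34287774-34288073, minus strand: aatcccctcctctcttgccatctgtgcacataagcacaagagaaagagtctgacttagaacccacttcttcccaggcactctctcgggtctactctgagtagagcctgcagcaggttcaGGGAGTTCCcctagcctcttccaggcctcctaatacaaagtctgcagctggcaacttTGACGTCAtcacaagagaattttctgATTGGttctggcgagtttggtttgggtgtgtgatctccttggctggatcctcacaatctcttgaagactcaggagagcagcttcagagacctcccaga

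TGACG was followed by ATTGG on the same strand in H2-K1, H2-D1 and B2m with 20 bases between them, and in H2-Aa with 21 bases between them. Gaps of 10 to 30 bases were searched. Of the 32851 promoters in the RefSeq table, 0.743% hold such a pair on either strand. In H2-Aa the TGACG overlaps its own reverse match. Promoters of Tap1, Tapbp, Psmb8 and Psmb9 hold no such pair in these windows. ATTGG alone is in 37.4% of all promoters, TGACG in 20.8%, GGNNNTTCC in 18.5%, GAANNGAAA in 7.52% and GAAANNGAA in 8.56%. GGNNNTTCC was found in H2-K1, H2-D1, B2m and H2-Aa, and a site of the interferon regulatory factor-like kind in H2-K1, H2-D1 and B2m. These letters were chosen after the sequences had been looked at, and a match describes the sequence and is no evidence of binding. Tap1 and Psmb9 lie head to head on opposite strands, with starts 226 bases apart, and their windows share 275 bases.

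By position (GRCm38, GENCODE M21), 8 of the 10 genes lie in the major histocompatibility complex on chromosome 17, between 33915899 (Tapbp) and 35267499 (H2-D1). Trem2 lies on the same chromosome at 48346401 to 48354147, 13.1 to 14.4 Mb from these 8 genes. B2m is on chromosome 2 at 122147686 to 122153083, and Cd74 on chromosome 18 at 60803848 to 60812652. Per kilobase of exon, B2m had the highest mean level over the 24 libraries, at 112 CPM per kb (CPM, the counts scaled to library size with TMM factors). The class I heavy chains H2-K1 and H2-D1 followed at 18.6 and 15.9 CPM per kb, and Tapbp, which bridges TAP and the heavy chain, at 12.2. Cd74 stood at 6.10 CPM per kb, above the class II chains H2-Ab1 at 1.75 and H2-Aa at 0.893. The immunoproteasome subunits Psmb8 and Psmb9 stood at 4.60 and 0.975 CPM per kb, and Tap1, a subunit of the transporter, at 1.11. Neighbours in this order had overlapping ranges over the libraries, and their order was not tested. The length used joins all annotated exons of a gene and can exceed that of its main transcript. The order of these levels can depend on that choice.

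**Figure D1:**
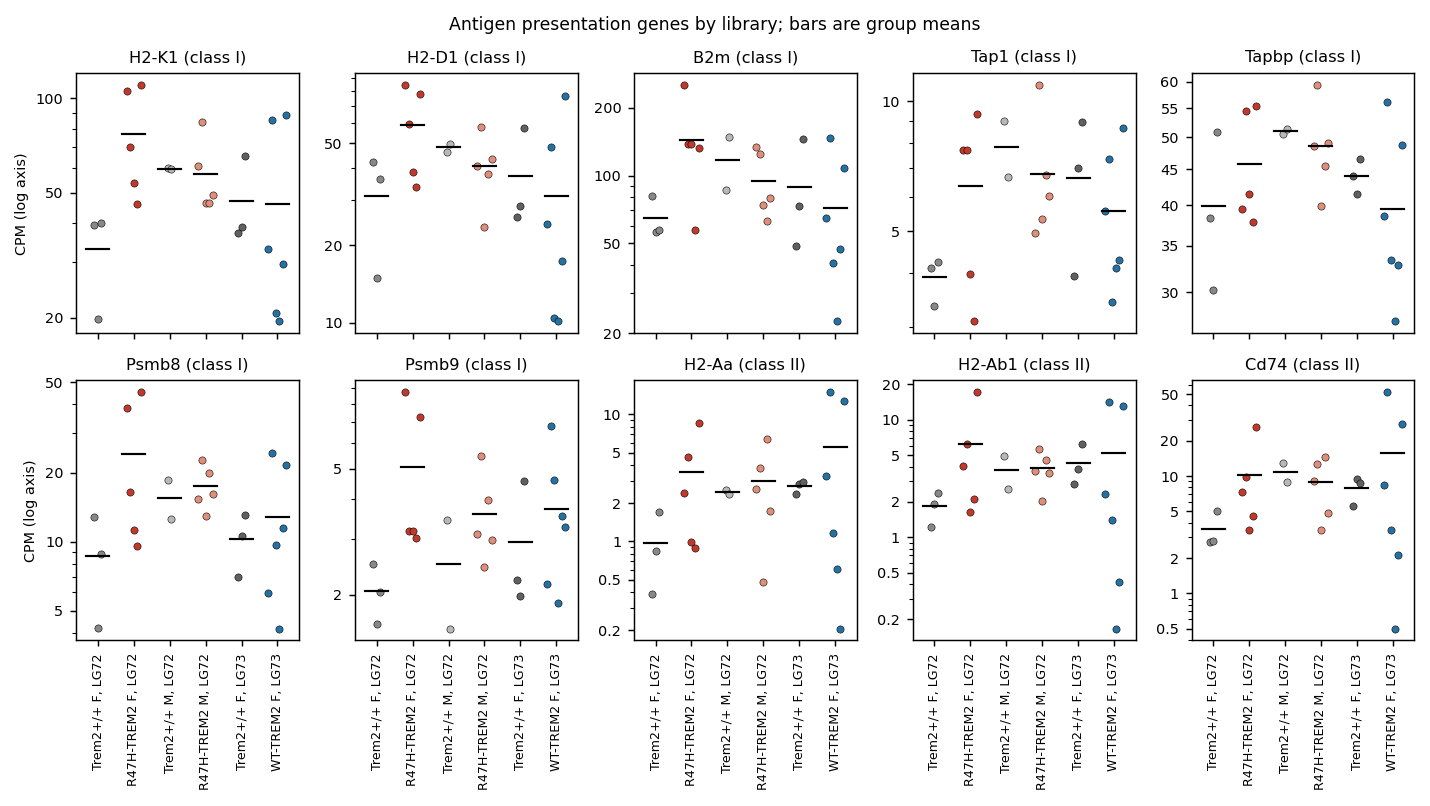
CPM of each of the 10 genes (log axis, a scale of its own in each panel) in each of the 24 libraries, by group on the x axis (F, females; M, males), with a bar at each group's mean. The 5 R47H-TREM2 females lie above all 3 of their controls for H2-K1 and Psmb9, and the 6 WT-TREM2 females span 0.50 to 51.8 CPM for Cd74.

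Trem2 itself stood at 18.1 ± 8.94 CPM in R47H-TREM2 females and 16.5 ± 10.3 in their controls (SD, n = 5 and 3), at 11.5 ± 3.2 in R47H-TREM2 males and 24.1 ± 4.59 in theirs (SD, n = 5 and 2), and at 12.4 ± 11.1 in WT-TREM2 females and 11.8 ± 4.99 in theirs (SD, n = 6 and 3). These are counts under the mouse symbol, and they may leave out reads of the human allele. All 5 R47H-TREM2 males lay below both controls (log2 fold change -1.06, SE 0.61, edgeR adjusted p = 0.779). In that comparison 11.3% of all genes tested did not overlap, higher or lower. Libraries held 13261478 to 23807390 counts. All 5 R47H-TREM2 females (at most 17442293) were shallower than their 3 controls (at least 17545680). In 6 libraries, genes of pituitary, olfactory tissue or striatum stood apart (over 50 CPM of Prl or of Omp, or over 30 CPM of Adora2a). They were R47H-TREM2 female 5, Trem2+/+ females 1 and 3 of LG72, Trem2+/+ female 3 of LG73 and WT-TREM2 females 2 and 5. Leaving out these 6 leaves 1 Trem2+/+ female of LG72 (female 2), so values without them rest there on a single control library. Alb, a liver gene, was not part of this rule. It ran from 1.72 CPM in R47H-TREM2 female 1 to 225 CPM in R47H-TREM2 male 4, and neither library is among the 6.

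In R47H-TREM2 females all 10 genes had a positive log2 fold change against Trem2+/+ females, with a median of 1.26 beside 0.00 over all genes tested, and 50.5% of all genes tested had a positive one. None of the 10 was called with edgeR's quasi-likelihood test at an adjusted p under 0.05, nor was any of the 16118 genes (0.00%). At an unadjusted p under 0.05 stood 4 of the 10, beside 2262 genes or 14.0% of all tested. The Wald test of DESeq2 called 0 of the 10 and 180 genes in all, and limma-voom with sample weights called 0 of the 10. The 4 became 0 without Trem2+/+ female 2 and 8 when the 2 groups were fitted alone. The share of all genes at an unadjusted p under 0.05 was not counted in these 2 fits. The 14.0% is that of the main fit and does not serve as their background.

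H2-K1, a class I heavy chain, read 105.8, 70.1, 53.8, 46.0 and 110.3 CPM in R47H-TREM2 females 1 to 5, and 39.3, 19.8 and 40.1 in Trem2+/+ females 1 to 3. All 5 lay above all 3 controls, and the means differed by a log2 fold change of 1.22 (SE 0.45, edgeR adjusted p = 0.251). H2-D1, the other classical heavy chain, read 84.5, 59.7, 38.6, 33.8 and 78.0 CPM against 42.3, 15.0 and 36.5. R47H-TREM2 females 3 and 4 lay within the range of the controls for H2-D1 (log2 fold change 0.91, SE 0.52, edgeR adjusted p = 0.43). For both heavy chains the highest libraries were R47H-TREM2 females 1 and 5 and the lowest control was female 2. Of the 50-base stretches of the transcripts, 9.63% in H2-K1 and 12.8% in H2-D1 also occur in other genes, so part of their reads can be shared with other heavy chains. B2m, the light chain of all class I molecules, shares none. It read 252, 138, 138, 57.5 and 133 CPM against 81.1, 56.4 and 57.4 (1.14 on the log2 scale, SE 0.49, edgeR adjusted p = 0.304). For B2m, 4 of 5 R47H-TREM2 libraries lay above all 3 controls and female 4 lay among them.

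The genes that supply peptide split into those with the largest and the smallest class I differences. Psmb8, a catalytic subunit that replaces Psmb5 in the immunoproteasome, read 38.5, 16.5, 11.2, 9.61 and 45.1 CPM against 12.9, 4.19 and 8.84 (1.48 on the log2 scale, SE 0.54, edgeR adjusted p = 0.244). Females 1 and 5 were highest, and 3 of 5 lay above all controls. Psmb9, which replaces Psmb6, read 8.70, 3.18, 3.18, 3.02 and 7.27 CPM against 2.50, 1.62 and 2.04, with no overlap (log2 fold change 1.30, SE 0.47, edgeR adjusted p = 0.244). Tap1 read 7.72, 7.70, 3.97, 3.09 and 9.32 CPM against 4.11, 3.35 and 4.25, and R47H-TREM2 female 4 was below all 3 controls (log2 fold change 0.70, SE 0.38, edgeR adjusted p = 0.4). Tapbp read 39.5, 54.6, 41.5, 37.8 and 55.4 CPM against 38.3, 30.2 and 51.0, and its groups overlapped almost fully (log2 fold change 0.20, SE 0.21, edgeR adjusted p = 0.678). Without Trem2+/+ female 2 the log2 fold change of Tapbp was -0.0019. In all, 2 of the 10 genes did not overlap between the groups, both higher in R47H-TREM2 females, beside 3.59% of all genes tested that were higher without overlap. Exons of Tap1 and Psmb9 overlap by 212 bases on opposite strands, Psmb8 overlaps a predicted antisense gene by 498 bases and Tapbp by 904. Reads in these overlaps cannot be told apart, since the sources do not say whether counting used strand. On the same strand, where strand would not part the reads, Tapbp shares 149 exonic bases with Zbtb22 and Cd74 shares 12 with Mir5107.

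The 3 class II genes had fold changes of 1.53 to 1.81 on the log2 scale, with larger errors than the class I genes. Cd74, the invariant chain that fills the class II groove until peptide is loaded, read 7.27, 9.86, 3.44, 4.60 and 26.0 CPM in R47H-TREM2 females and 2.72, 2.79 and 5.01 in Trem2+/+ females. Female 5 stood far above the other 4, and females 3 and 4 lay within the range of the controls (log2 fold change 1.53, SE 0.92, edgeR adjusted p = 0.447). H2-Ab1, the beta chain of the A molecule, read 4.05, 6.25, 1.65, 2.13 and 17.2 CPM against 1.22, 1.90 and 2.38 (1.76 on the log2 scale, SE 0.95, edgeR adjusted p = 0.404). H2-Aa, its alpha chain, read 2.40, 4.58, 0.992, 0.892 and 8.61 CPM against 0.389, 0.838 and 1.70 (1.81 on the log2 scale, SE 1.03, edgeR adjusted p = 0.424). For each of the 3, the same 3 libraries (females 1, 2 and 5) lay above all controls and the other 2 did not. The median of the 3 fold changes was 1.76, beside 1.14 for the 7 class I genes. Without R47H-TREM2 female 5, a library with 979 CPM of the pituitary hormone prolactin (Prl), the class II median was 0.94 and the class I median 1.06, so the order of the classes turned. It also turned without all 6 libraries that stood apart, at 1.17 for class II and 1.46 for class I. That setting sets 4 R47H-TREM2 libraries against Trem2+/+ female 2 alone, which had the lowest H2-K1, H2-D1 and Psmb8 of the 3 controls, and other groups supply the spread. H2-K1 then had a log2 fold change of 1.79, H2-D1 of 1.85, Psmb8 of 2.16, Tapbp of 0.52 and H2-Ab1 of 0.89, and no p is given for them, since the lone control is assumed to vary like the other groups. Without Trem2+/+ female 2 the value of H2-D1 was 0.54, and without R47H-TREM2 female 5 that of Cd74 was 0.84 and that of H2-Aa 1.17.

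**Figure D2:**
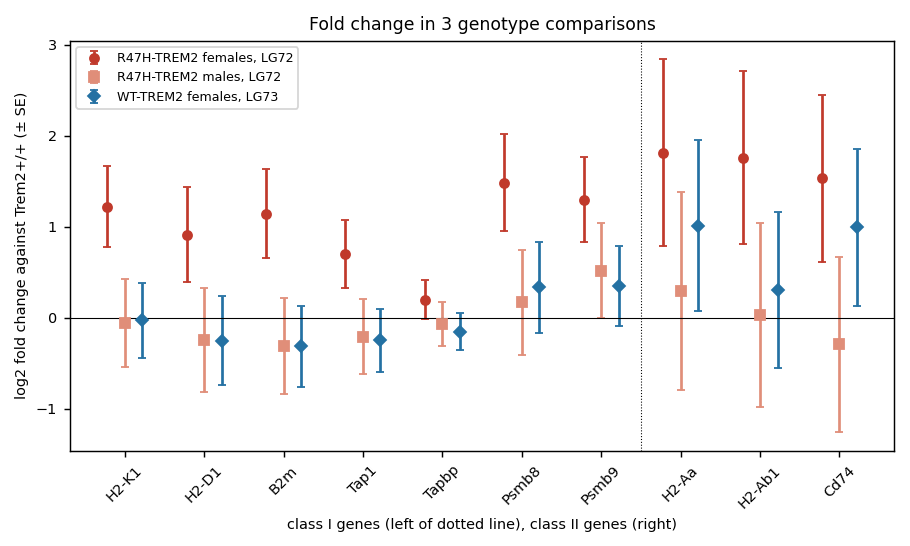
Log2 fold change of each gene against Trem2+/+ mice of the same sex and title prefix, with its standard error from edgeR, for R47H-TREM2 females, R47H-TREM2 males and WT-TREM2 females. All 10 values are above 0 in R47H-TREM2 females (0.20 to 1.81), and the bars of the class II genes (standard errors of 0.86 to 1.09) are wider than those of the class I genes (0.20 to 0.58).

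In R47H-TREM2 males no gene of the 10 had an unadjusted p under 0.05 with edgeR, beside 995 genes or 6.17% of all tested, and 0.00% were called. DESeq2 called 0 of the 10 and 3 genes in all. Of the 7 class I genes 2 had a positive log2 fold change (median -0.07), and of the 3 class II genes 2 (median 0.03). H2-K1 read 60.8, 84.0, 46.4, 46.5 and 49.3 CPM in R47H-TREM2 males 1 to 5 and 59.8 and 59.5 in the 2 Trem2+/+ males (log2 fold change -0.06, SE 0.49, edgeR adjusted p = 0.984). The controls lay inside the range of the R47H-TREM2 males. Cd74 read 9.16, 12.7, 3.46, 14.6 and 4.85 CPM against 12.9 and 8.97 (-0.29 on the log2 scale, SE 0.96, edgeR adjusted p = 0.961). The largest fold change of the 10 was that of Psmb9, 0.52 (SE 0.52), at 3.60 ± 1.19 against 2.50 ± 1.32 CPM (SD, n = 5 and 2). None of the 10 was without overlap between the male groups, beside 11.3% of all genes tested. With 2 controls, the level of each control weighs heavily. Psmb9 had a log2 fold change of 0.06 without Trem2+/+ male 2 and of 1.2 without Trem2+/+ male 1, each time against 1 control.

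In WT-TREM2 females again none of the 10 had an unadjusted p under 0.05 with edgeR, beside 630 genes or 3.91% of all tested, and 0.00% were called. DESeq2 called 0 of the 10 and 0 genes in all. The class I median was -0.16, with 2 of 7 positive, and the class II median 0.99, with 3 of 3 positive. H2-K1 ran from 19.4 over a median of 31.4 to 88.7 CPM in the 6 WT-TREM2 females and read 37.2, 38.8 and 65.3 in Trem2+/+ females 1 to 3 of LG73. Of the 6, 2 lay above all controls and 4 below all of them, and the means were within 1 CPM of each other (log2 fold change -0.03, SE 0.41, edgeR adjusted p = 0.988). Cd74 ran from 0.50 over a median of 5.97 to 51.8 CPM against 5.56, 9.49 and 8.65 (0.99 on the log2 scale, SE 0.86, edgeR adjusted p = 0.86). WT-TREM2 females 2 and 6 lay above all 3 controls for all 3 class II genes, and females 3, 4 and 5 lay below all of them. In female 4 the counts behind these values were 11 for H2-Aa, 3 for H2-Ab1 and 9 for Cd74, and in female 2 they were 282, 267 and 979. The class II median was 0.11 without WT-TREM2 female 2 and 0.57 without female 6, and it turned to -0.39 when limma-voom weighted each library. The class I median turned to 0.23 without Trem2+/+ female 3 of LG73. Without the libraries that stood apart, which leaves 4 WT-TREM2 females and 2 controls, the medians were 0.088 for class I and 0.42 for class II. None of the 10 was without overlap between these groups, beside 2.82% of all genes tested.

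The effect of R47H-TREM2 was set against that of WT-TREM2 in females by testing the difference itself. All 10 differences were positive (0.36 to 1.46 on the log2 scale, median 1.05 beside -0.04 over all genes tested). H2-K1 differed by 1.25 (SE 0.59, edgeR adjusted p = 0.54) and B2m by 1.46 (SE 0.65, edgeR adjusted p = 0.503). These 2 of 10 had an unadjusted p under 0.05, beside 1459 genes or 9.05% of all tested, and none was called (0.00% of all genes). The 2 became 0 to 4 with 1 library left out. DESeq2 called 0 of the 10 and 13 genes in all. The class II differences were 0.80 for H2-Aa, 1.46 for H2-Ab1 and 0.54 for Cd74, with SEs of 1.32, 1.24 and 1.2. Since no title prefix covers both R47H-TREM2 and WT-TREM2 mice, prefix and allele cannot be told apart beyond each prefix's own controls. The R47H effect in females minus that in males was positive for all 10 as well (0.27 to 1.83, median 1.30). None of these 10 had an unadjusted p under 0.05 in edgeR, beside 860 genes or 5.34%, and none was called (0.00%). The count was 4 when only these groups were fitted and 0 to 3 with 1 library left out. B2m came nearest at 1.45 (SE 0.71, edgeR adjusted p = 0.936), and DESeq2 called 0 of the 10 and 1 gene in all. Both differences use the same 8 LG72 females, so their shared sign is not 2 separate results. For the fits with fewer libraries or groups, the share of all genes at an unadjusted p under 0.05 was not counted.

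The classes differed in how far libraries of 1 group stood apart. With group means removed, the SD of log2 CPM was 1.52 for H2-Aa, 1.43 for H2-Ab1 and 1.44 for Cd74, where 99.2%, 99.0% and 99.0% of the genes tested had a lower SD. It was 0.29 for Tapbp, 0.52 for Tap1, 0.61 for Psmb9, 0.65 for H2-K1, 0.74 for B2m and 0.79 for both H2-D1 and Psmb8, beside a median of 0.40 over all genes tested. At the mean counts of the class II genes, 62 to 186, counting error alone would give an SD of 0.11 to 0.18. That error is larger in libraries with few counts, and the lowest were 4 for H2-Aa, 3 for H2-Ab1 and 9 for Cd74. From the lowest to the highest library, the class II genes ranged over 72.4 (H2-Aa), 103 (H2-Ab1) and 104 (Cd74) times, and the class I genes over 2.18 (Tapbp) to 11.2 (B2m) times. A class level was taken as the mean of its genes' log2 CPM (prior count of 2). Each gene was first centred on its mean over the 24 libraries. The widest class II spread was in WT-TREM2 females (from -2.88 to 2.61), where the class I level ran from -1.22 to 0.67. The narrowest among the female groups was in Trem2+/+ females of LG73 (-0.08 to 0.60 for class II). Class II minus class I averaged -0.12 ± 0.88 in R47H-TREM2 females and -0.50 ± 0.78 in Trem2+/+ females of LG72 (SD, n = 5 and 3), a gap smaller than either SD.

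**Figure D3:**
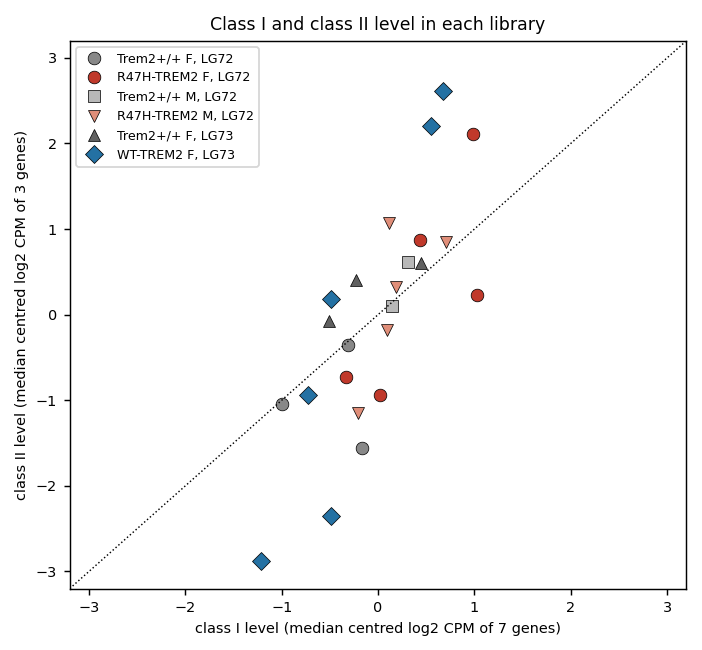
Class I level against class II level in the 24 libraries, by group, with a dotted line where both are equal. Each level is the mean of its genes' centred log2 CPM, although the axis labels read median. WT-TREM2 females hold both ends of the class II axis, at -2.88 and 2.61, and the class I axis spans only -1.22 to 1.02.

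Over all libraries, with group means removed, every pair of the 10 genes had a positive correlation, with a median r of 0.726. Of all pairs of tested genes, 1.54% had an r at or above that median and 13.2% one at or above the lowest of the 10 genes' pairs. Of 45 pairs, 43 had a correlation over the 24 libraries past an adjusted p of 0.05 (group means removed, 100000 permutations of libraries within groups, Benjamini-Hochberg over 45 pairs) by Pearson's r, and 34 did without the 6 libraries that stood apart. By Pearson's r, H2-Ab1 and Cd74 had the highest value, with r = 0.965 and Spearman's rho = 0.914 (permutation p = 1e-05 for both, the smallest 100000 permutations can give, adjusted p = 0.000112 and 9e-05). Without the 2 libraries farthest from the median of H2-Ab1 it was 0.944, and within LG72 females, LG72 males and LG73 females it was 0.981, 0.856 and 0.978. H2-K1 and H2-D1 came next with r = 0.962 and rho = 0.949 (permutation p = 1e-05 for both, adjusted p = 0.000112 and 9e-05), with 0.952 without the 2 farthest libraries and 0.975, 0.755 and 0.98 within the 3 sets. These heavy chains share sequence, as given above. Psmb8 and Psmb9, the immunoproteasome pair, had r = 0.828 and rho = 0.877 (permutation p = 3e-05 and 1e-05, adjusted p = 0.000169 and 9e-05), 0.772 without the 2 farthest and 0.927, 0.974 and 0.765 within sets. Across the classes, H2-K1 and Cd74 had r = 0.806 and rho = 0.761 (permutation p = 0.00051 and 0.00067, adjusted p = 0.00127 and 0.00151), 0.684 without the 2 farthest and 0.685, 0.479 and 0.885 within sets. In LG72 males the r of B2m was -0.12 with Psmb8, -0.107 with Psmb9, 0.0253 with Tap1 and 0.01 with H2-Ab1, over 7 libraries. The first 2 were the only negative values among the 45 pairs there, and none was negative in LG72 or LG73 females. By Spearman's rho, H2-Aa with Cd74 had the highest value (0.972) and B2m with Psmb9 the lowest (rho = 0.392, permutation p = 0.118). The 3 class II pairs had r from 0.905 to 0.965, the 21 class I pairs from 0.443 to 0.962 and the 21 pairs between classes from 0.409 to 0.835. Lowest by Pearson's r were Psmb9 with H2-Aa (r = 0.409, rho = 0.407, permutation p = 0.0956 and 0.0902, adjusted p = 0.0956 and 0.0923) and Psmb9 with Tapbp (r = 0.443, rho = 0.403, permutation p = 0.052 and 0.0746, adjusted p = 0.0532 and 0.0799).

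**Figure D4:**
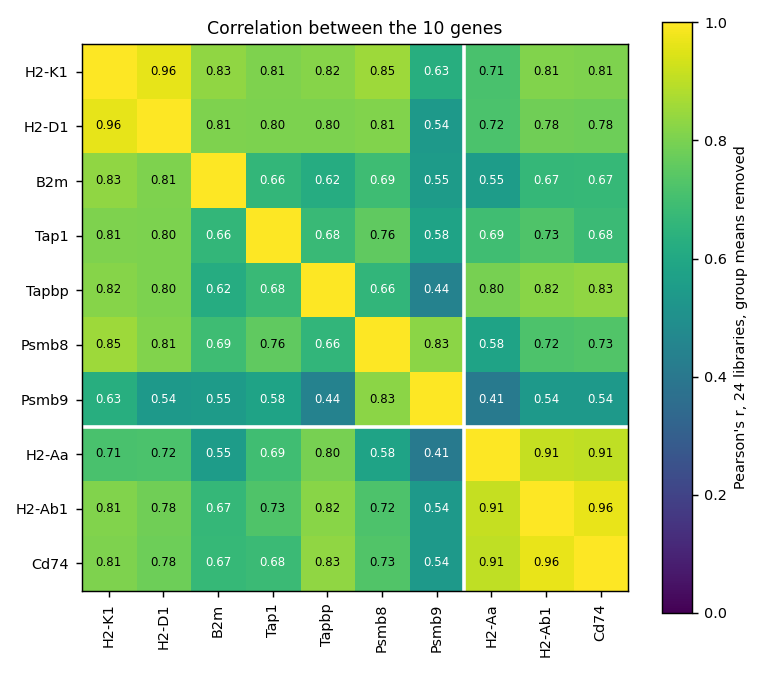
Pearson's r between each pair of the 10 genes over 24 libraries, on log2 CPM with group means removed; white lines part the 7 class I genes from the 3 class II genes. The class II block holds 0.905 to 0.965, and the row of Psmb9 holds the lowest values, down to 0.409.

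Ratios within a library do not depend on depth. The immunoproteasome subunit Psmb8 stood at 0.151 ± 0.101 counts per count of Psmb5, which it replaces, in R47H-TREM2 females and at 0.0620 ± 0.0313 in Trem2+/+ females (SD, n = 5 and 3). Libraries of the 2 groups overlapped, with 0.0416 as the lowest R47H-TREM2 value and 0.0978 as the highest control. Psmb9 per Psmb6 stood at 0.0209 ± 0.00858 and 0.0110 ± 0.00312 (SD, n = 5 and 3), again with overlap. Psmb10 per Psmb7, the remaining pair of inducible and constitutive subunits, stood at 0.224 ± 0.0954 and 0.252 ± 0.105 (SD, n = 5 and 3), the other way. Counts of H2-K1 per H2-D1 stood at 1.65 ± 0.323 in WT-TREM2 females and 1.31 ± 0.153 in their controls (SD, n = 6 and 3), with overlap.

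The rest of the pathway was given by 57 genes in 9 lists, of which 52 were tested. None was called in any comparison with edgeR. In R47H-TREM2 females 40 of the 52 had a positive log2 fold change (median 0.38), and 12 had an unadjusted p under 0.05, beside 50.5% and 14.0% of all genes tested. Ifi30, a thiol reductase of the class II compartment, stood at 5.83 ± 2.96 against 1.92 ± 0.726 CPM (SD, n = 5 and 3). Its log2 fold change was 1.59 (SE 0.48, edgeR adjusted p = 0.193). Ifnar2, a chain of the type I interferon receptor, stood at 26.0 ± 3.94 against 16.4 ± 3.44 CPM without overlap, a log2 fold change of 0.67 (SE 0.20, edgeR adjusted p = 0.193). Pdia3, a disulfide isomerase of the class I loading complex, stood at 396 ± 101.3 against 257 ± 56.4 CPM, a log2 fold change of 0.62 (SE 0.21, edgeR adjusted p = 0.219). All 8 tested genes of the other class I chains list were positive (median 0.63), as were all 4 of class II processing (median 0.66) and all 5 of costimulation (median 0.65). The other class I chains were also positive for 8 of 8 in R47H-TREM2 males (median 0.20) and 7 of 8 in WT-TREM2 females (median 0.14). In R47H-TREM2 females the remaining lists were mixed. Class I loading had 5 of 6 positive (median 0.53) and other class II chains 5 of 7 (median 0.22). Other immunoproteasome genes had 2 of 3 (median 0.22) and interferon ligands and receptors 3 of 4 (median 0.14). The 12 regulators, which include Ciita, Nlrc5 and the RFX and NF-Y subunits that act on these promoters, split 6 and 6 (median 0.03). Both coactivators were on the positive side, at low levels. Nlrc5 stood at 1.08 ± 0.965 against 0.485 ± 0.257 CPM (log2 fold change 1.14, SE 0.82, edgeR adjusted p = 0.526). Ciita stood at 0.912 ± 0.226 against 0.639 ± 0.368 CPM (log2 fold change 0.51, SE 0.54, edgeR adjusted p = 0.671). The 3 constitutive proteasome subunits had a median of 0.12.

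In R47H-TREM2 males 29 of the 52 pathway genes were positive (median 0.09) and 1 had an unadjusted p under 0.05, beside 6.17% of all genes tested. That was H2-Ob, a chain of the class II editor DO, at 0.867 ± 0.576 against 2.12 ± 0.0667 CPM without overlap (SD, n = 5 and 2). Its fitted value was -1.29 on the log2 scale (SE 0.62, edgeR adjusted p = 0.779). Nfya, an NF-Y subunit, stood at 16.7 ± 1.28 against 11.6 ± 3.84 CPM and Psme1, a proteasome activator, at 38.1 ± 1.29 against 29.2 ± 8.82 (edgeR adjusted p = 0.779 and 0.802). In WT-TREM2 females 29 of 52 were positive (median 0.03), and 1, H2-Ea-ps, had an unadjusted p under 0.05, beside 3.91% of all genes tested. Psme2, the partner of Psme1, stood at 11.3 ± 3.46 against 7.50 ± 1.69 CPM and Rfxank, an RFX subunit, at 14.9 ± 4.47 against 11.6 ± 2.51 (edgeR adjusted p = 0.86 for both). For the R47H effect minus the WT effect, the smallest p of the list were those of H2-DMb1, a chain of the peptide loader DM (1.94, SE 0.69, edgeR adjusted p = 0.388), Ifnar2 (0.78, SE 0.28, adjusted p = 0.396) and Ifi30 (1.62, SE 0.64, adjusted p = 0.447). For the R47H effect in females minus males they were those of H2-Ob (2.93, SE 0.86, edgeR adjusted p = 0.696), Ifi30 (1.97, SE 0.68, adjusted p = 0.697) and Cd86, a costimulatory ligand (2.03, SE 0.80, adjusted p = 0.833).

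H2-Ea-ps, the alpha chain gene of the class II E molecule, had 54 counts in WT-TREM2 female 2, 18 in WT-TREM2 female 3, 1 in R47H-TREM2 male 5 and 0 in the other 21 libraries. The gene lies on chromosome 17 at 34341959 to 34344645 and is annotated as a polymorphic pseudogene. C57BL/6 and other mouse strains of the b haplotype carry a deletion at its promoter and make no transcript, whereas strains of several other haplotypes do. The 54 and 18 counts were 5.52% and 22.5% of the Cd74 counts of the same libraries. Absence cannot be told at low class II levels, but R47H-TREM2 female 5 and WT-TREM2 female 6, with 368 and 601 Cd74 counts, had 0. Without the 2 WT-TREM2 libraries that have these counts, a choice made after the data were seen, the log2 fold changes of Psmb9 and H2-Ab1 in WT-TREM2 females were -0.10 and -0.08. The labels give no strain, and the part of strain in any result was not tested.

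Markers of other cells were set beside these genes, since bulk tissue cannot tell fewer cells of a type from less RNA per cell. The sum of 12 microglia markers read 1576, 1137, 995, 528 and 1289.6 CPM in R47H-TREM2 females 1 to 5 and 635, 465 and 636 in their controls, with 12 of 12 markers positive (median log2 fold change 0.95), 8 of them at an unadjusted p under 0.05 and none called with edgeR. Of all genes tested in this comparison, 50.5% were positive and 14.0% had an unadjusted p under 0.05 with edgeR. R47H-TREM2 female 4 lay among the controls for the markers and for B2m and H2-D1. In R47H-TREM2 males 4 of 12 were positive (median -0.30) and in WT-TREM2 females 9 of 12 (median 0.14). Astrocyte and oligodendrocyte lists were each positive for 4 of 4 genes in R47H-TREM2 females (medians 0.89 and 0.80). The neuron lists were mixed there. General neuron markers were positive for 0 of 5 (median -0.40), striatal ones for 0 of 4 (median -2.27) and hippocampal ones for 3 of 5 (median 0.31). Border macrophage markers were positive for 3 of 5 tested genes (median 1.48), with 0 at an unadjusted p under 0.05 with edgeR. They were positive for 0 of 5 in R47H-TREM2 males (median -1.11) and 3 of 5 in WT-TREM2 females (median 0.016). Choroid plexus markers were positive for 7 of 7 in R47H-TREM2 females (median 1.74). The choroid plexus markers ran from 361 to 3491 CPM in R47H-TREM2 females and from 61.2 to 623 in their controls. In WT-TREM2 females choroid plexus markers were positive for 0 of 7 genes (median -2.33) and in R47H-TREM2 males for 7 of 7 (median 2.87). The part of these cell types in the results above was not tested.

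H2-K1 correlated with the microglia sum at r = 0.841 and rho = 0.895 (group means removed, 24 libraries, permutation p = 2e-05 and 1e-05, adjusted p = 0.00072 and 0.00036 over 36 relations). It was 0.838 without the 2 libraries farthest from its median, and 0.845, 0.782 and 0.876 within LG72 females, LG72 males and LG73 females. For Cd74 the same relation had r = 0.676 and rho = 0.615 (permutation p = 0.00313 and 0.00646, adjusted p = 0.0376 and 0.0465). It was 0.452 without the 2 farthest libraries and 0.493, 0.167 and 0.884 within the sets, lowest in LG72 males. Whether the correlations of the 2 genes differ was not tested. Of the 36 relations, 8 passed an adjusted p of 0.05, and without the 6 libraries that stood apart 0 did (18 libraries; for H2-K1 and microglia r = 0.757, permutation p = 0.00252, adjusted p = 0.0662). The other relations that passed by Pearson's r were H2-K1 with dendritic cell, astrocyte and pituitary markers, and Cd74 with dendritic cell, T cell and pituitary markers. By rho, those with pituitary and T cell markers did not pass. The 8 dendritic cell markers summed to 10.8 to 20.1 CPM in R47H-TREM2 females and to 7.99 to 12.6 in their controls, with 3 of 5 tested markers positive (median 1.15). Of the 8, Itgax reached 13.2 CPM, Zbtb46 7.06 and Flt3 4.66, while Xcr1 and Cd209a were at 0 in 13 libraries each and Ccr7 in 21. The part of these cells in the results was not tested. The T cell sum was highest, at 13.5 CPM, in WT-TREM2 female 2, the library with the highest Cd74. Its r with Cd74 was 0.647, and 0.217 without the 2 libraries farthest from the median of Cd74.

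**Figure D5:**
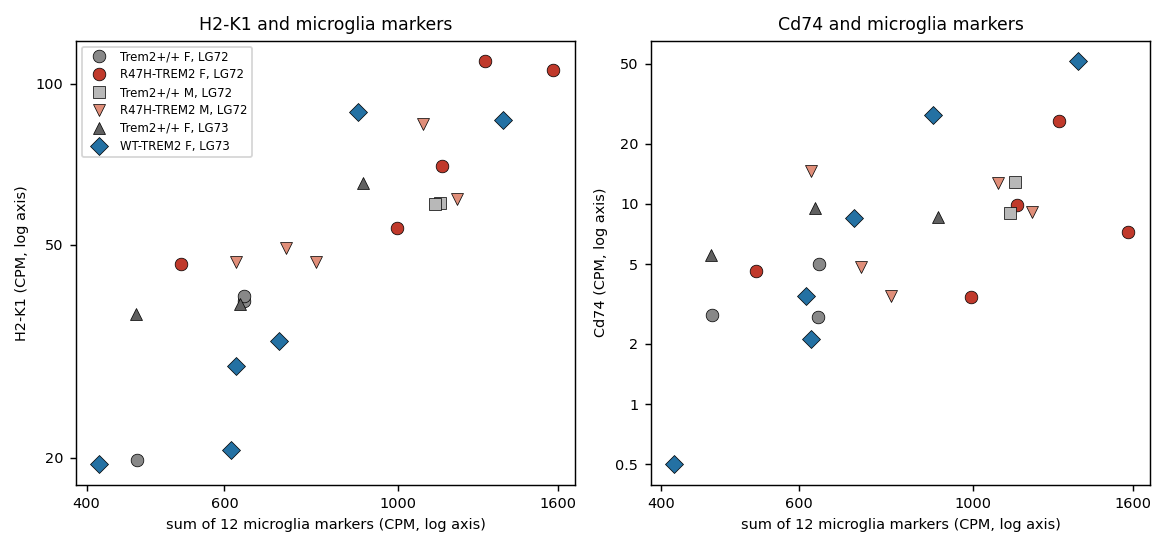
CPM of H2-K1 (left) and Cd74 (right) against the summed CPM of 12 microglia markers in each of 24 libraries, both on log axes, by group. H2-K1 follows the sum in all 3 sets of libraries (r of 0.782 to 0.876 within them), and Cd74 ranges over 0.50 to 51.8 CPM with values within the sets from 0.167 to 0.884.

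The genes most like H2-K1 over the 24 libraries, by Pearson's r of log2 CPM among 13313 genes, were H2-Q4 (r = 0.937), another heavy chain, the tumor necrosis factor receptor Tnfrsf1a (0.927), the interferon-induced Ifitm3 (0.906), the actin regulator Arpc1b (0.905) and the lysosomal protease Ctsh (0.893). Those most like Cd74 were Tnfrsf1a (0.790), the galectin Lgals9 (0.785), H2-Q4 (0.774), and the interferon-induced Oas1a (0.763) and Bst2 (0.758). These are descriptions of the same libraries, and depth, tissue makeup and group are shared by all of them.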

How the data were processed

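Hippocampal total RNA was enriched with oligo(dT) beads, per the labels' protocols. The values used are read counts per gene symbol, raw whole numbers deposited by the authors. The submitters' processing notes name the build GRCm38. The aligner, counter and strand handling behind them (not given in the sources used here) could shift counts of overlapping or similar genes. Of the columns deposited, 18 matched no sample (6 in the hippocampal table and 12 in another) and were not used. Counts passed filterByExpr (16118 of 24058 symbols) and were scaled with TMM factors. One edgeR fit (version 4.0.16, under R 4.3.3) held all 24 libraries with a mean for each of 6 groups. Its quasi-likelihood tests gave the p-values, with Benjamini-Hochberg adjustment across the whole set of tested genes. Alternatives were DESeq2 1.42.0 (size factors, Wald test), limma 3.58.1 (voom with sample weights), no filter, the compared groups alone, an adjusted p under 0.1, and leaving out the 6 libraries that stood apart or each library in turn. The fit and the correlation test were tried on simulated data. Libraries held 13261478 to 23807390 counts, with a common biological coefficient of variation of 0.318.

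The 10 genes, the lists and the tests were chosen with earlier results of these data known. The text names the 10 genes and Trem2, the 3 pathway genes with the smallest p of each comparison, H2-Ea-ps, and the 5 genes most like H2-K1 and Cd74 among tested genes with a mean of at least 1 CPM, without predicted genes. Exon lengths and positions came from GENCODE M21 and promoters from RefSeq. Replicates are numbered in the order of their accessions.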

Additional observations from a re-analysis of the deposited data

Results flagged for a closer look

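Cd74 in R47H-TREM2 female 5 stood at 25.98 CPM, and the next highest of the 5 R47H-TREM2 females at 9.86 CPM. Dixon's test was run on CPM and not on the log scale used for the spreads above. The gap was 0.715 of the range of the group, just above the critical value of Dixon's test for 5 libraries (0.71). It was the only value so far from its group among the 30 combinations of a gene and a group with 4 or more libraries, and chance flags about 1 in 20. The same library had 979 CPM of Prl. Its part in the Cd74 value was not tested.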

How the results depend on the processing

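The number of the 10 genes called was 0 in all 5 comparisons under every alternative run, including each library left out in turn. Over all genes edgeR called 0 in each comparison in the main fit. For R47H-TREM2 females it called 7 without R47H-TREM2 female 4 and 2 without Trem2+/+ female 3. It called 1 there without Trem2+/+ female 2 and 1 with no filter. Without either Trem2+/+ male, 1 control is left and other groups supply the spread, so no count is given. In R47H-TREM2 females 139 of 140 values of the 10 genes kept their sign, and the class I and class II medians ran from 0.84 to 1.46 and from 0.94 to 2.0. The exception was Tapbp, at -0.0019 to 0.42 with 1 library left out. In R47H-TREM2 males 119 of 130 values kept their sign and in WT-TREM2 females 143 of 160. With 1 library left out, values of R47H-TREM2 males that turned ranged from -0.24 to 0.012 (H2-K1), -0.64 to 0.13 (B2m), -0.45 to 0.032 (Tap1), -0.089 to 0.49 (Psmb8), -0.19 to 0.57 (H2-Aa) and -0.36 to 0.58 (H2-Ab1). Those of WT-TREM2 females ranged from -0.32 to 0.28 (H2-K1), -0.75 to 0.20 (H2-D1), -0.65 to 0.23 (B2m), -0.52 to 0.030 (Tap1) and -0.29 to 0.66 (H2-Ab1). With limma-voom and sample weights, H2-Aa and H2-Ab1 turned to -0.50 and -0.044 in R47H-TREM2 males, and H2-Aa, H2-Ab1 and Cd74 to -0.36, -0.94 and -0.39 in WT-TREM2 females. Without the 6 libraries that stood apart (1 control left in LG72 females), H2-K1 and H2-D1 turned to 0.088 and 0.16 in WT-TREM2 females, and 0 instead of 8 relations with marker sums passed (18 libraries). Without the 2 WT-TREM2 libraries with H2-Ea-ps counts (54 and 18), chosen after seeing the data, Psmb9 and H2-Ab1 turned to -0.10 and -0.081 in WT-TREM2 females. The causes were not tested. No paired analysis was possible because the labels carry no replicate numbers shared between the groups compared. Counts of 3 to 11 for class II genes in WT-TREM2 female 4 limit its values.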
